A study of Homo sapiens with 8 samples.

Results

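OTX2, HESX1, FEZF1, LHX5, LHX2, SIX3, RAX, PAX6, SOX1 and ZIC1 are transcription factors of the anterior neural plate and the early neuroectoderm. Their RNA was sequenced from the human embryonic stem cell line H9, which is long established. The 10 genes were taken by symbol from the authors' 2 tables, in which each has 1 row per day, out of 37057 loci listed on either day. They were picked because of their levels in the 4 groups described here, so those levels are a description, and no test is made on them. The cells grew on gels of 60 kPa (stiff) or 400 Pa (soft) in feeder-conditioned medium. They were taken after induction to mesoderm with bFGF, Activin, VEGF and BMP4, labelled day 3.5, or undifferentiated, labelled day 0. The groups are thus day 3.5 on 60 kPa, day 3.5 on 400 Pa, day 0 on 60 kPa and day 0 on 400 Pa, with 2 libraries each and 1 cell line in all of them. Whether the 2 libraries of a group were made from separate cultures is not in the labels.

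The anterior neural plate is the part of the embryonic ectoderm that gives rise to the forebrain and the eyes. It forms where BMP and WNT signals are kept low, and cells with strong BMP or WNT signalling turn to mesoderm, surface ectoderm or more posterior neural fates. OTX2 is already active in the pluripotent epiblast and is later kept in the forebrain and midbrain, whereas SOX1 and PAX6 are widely used to mark cells committed to the neural fate. The mesoderm cocktail used here contains BMP4.

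The tables hold, per gene and group, 1 level in FPKM (fragments per kilobase of transcript, scaled to the mapped fragments), so no SD or n stands behind a single level, and read depth is unknown. A change between gels is given as log2((FPKM + 1) on 60 kPa / (FPKM + 1) on 400 Pa), so changes of low genes are understated. Beside it, the standard error (SE) is the authors' deposited log2 ratio divided by their test statistic, an approximation on the scale without pseudocount. A locus is called where its q in the authors' deposited tables is below 0.05 and its level reaches 1 FPKM on a gel. In bulk RNA, a larger share of expressing cells and more RNA per cell cannot be told apart.

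After induction, all 10 factors were listed higher on 60 kPa than on 400 Pa, by between 0.02 and 2.92 on the log2 scale. This held for 9 of the 9 that reached 1 FPKM on a gel and for 48.1% of all loci at that level. Their summed level was 353 FPKM on 60 kPa and 118 FPKM on 400 Pa at day 3.5. At day 0 it was 113 FPKM on 60 kPa and 192 FPKM on 400 Pa. The order of the gels by this sum was thus opposite on the 2 days. Most of the day 0 sum was OTX2, at 82.2 FPKM on 60 kPa and 136 FPKM on 400 Pa. At day 0, 7 members were listed lower on 60 kPa and 3 (RAX, LHX2 and ZIC1, each below 1 FPKM) higher. For day 3.5, the authors' deposited table called 4 of the 9 members that were tested and reached 1 FPKM higher on 60 kPa and 0 higher on 400 Pa, where 0.252% of all such loci were called higher on 60 kPa and 1.08% higher on 400 Pa. At day 0 only 4 members reached 1 FPKM on either gel, and the authors' deposited table called 0 of them in either direction, while all 4 were listed lower on 60 kPa (46.0% of loci at that level were listed higher there), against 0.0751% of loci called higher on 60 kPa and 0.0635% higher on 400 Pa. Since the genes were chosen on this contrast, nothing is read from these shares.

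By level, the order at day 3.5 on 60 kPa was OTX2, FEZF1, HESX1, LHX5, PAX6, SIX3, RAX, LHX2, ZIC1 and SOX1. On 400 Pa PAX6 stood second, ahead of FEZF1, HESX1 and LHX5. At day 0, OTX2, FEZF1, HESX1 and LHX5 led in that order on both gels. With 1 value per group, no spread says which neighbours in these orders differ. The 10 loci with the highest FPKM took 44.9% to 52.1% of the summed FPKM in a group.

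**Figure D1:**
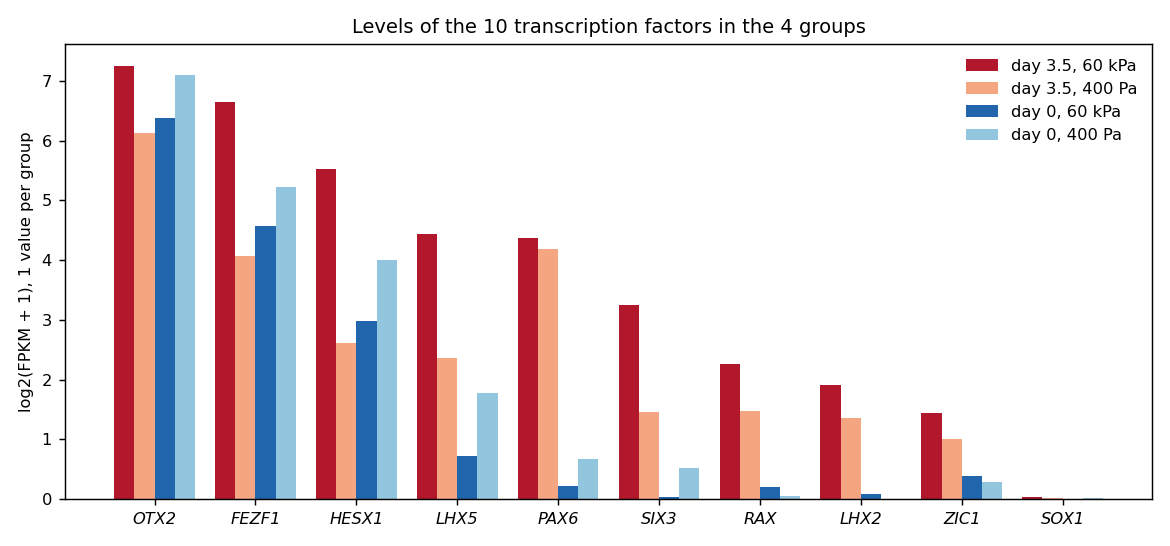
Level of each factor as log2(FPKM + 1), with 1 bar for the authors' value in each group, from left to right day 3.5 on 60 kPa, day 3.5 on 400 Pa, day 0 on 60 kPa and day 0 on 400 Pa. OTX2 was the most abundant member in each group and reached 152 FPKM at day 3.5 on 60 kPa, while SOX1 stayed below 0.1 FPKM in all of them.

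HESX1, a paired-like homeodomain repressor needed for forebrain and pituitary development, differed most of the members between the gels after induction. At day 3.5 it was at 45.3 FPKM on 60 kPa and 5.11 FPKM on 400 Pa, and at day 0 at 6.86 FPKM on 60 kPa and 15.0 FPKM on 400 Pa. The level after induction on the stiff gel was thus the highest of the 4, and that on the soft gel the lowest. The change was 2.92 (SE 0.70) at day 3.5, with q = 0.00783 in the authors' deposited table, and -1.03 (SE 0.59) at day 0, with p = 0.0086 before adjustment and no call there. Among 18576 loci with 1 FPKM or more on a gel at day 3.5, that of HESX1 was the 106th from the top on the stiff side.

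FEZF1, a zinc-finger repressor of the rostral forebrain and olfactory system, had nearly the same profile. It was at 99.4 FPKM on 60 kPa and 15.8 FPKM on 400 Pa at day 3.5, and at 22.9 FPKM on 60 kPa and 36.4 FPKM on 400 Pa at day 0. Its change was 2.58 (SE 0.87) at day 3.5, with q = 0.00783 in the authors' deposited table. At day 0 the change was -0.65 (SE 0.66), with an unadjusted p of 0.14 in the authors' deposited table. After subtracting each gene's mean, the log2(FPKM + 1) values of HESX1 and FEZF1 lay 0.38 apart over the 4 groups (Euclidean distance), the smallest distance from HESX1 to any other member.

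OTX2, the homeodomain factor of the epiblast, forebrain and midbrain, had the highest level and a smaller change. It stood at 152 FPKM on 60 kPa and 69.3 FPKM on 400 Pa after induction, and at 82.2 FPKM on 60 kPa and 136 FPKM on 400 Pa before it. The undifferentiated cells on the soft gel and the induced cells on the stiff gel were thus the high groups. Its change of 1.12 (SE 0.48) at day 3.5 had q = 0.041 in the authors' deposited table, and that of -0.72 (SE 0.38) at day 0 had an unadjusted p of 0.0074 in the authors' deposited table.

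LHX5, a LIM-homeodomain factor that promotes forebrain development in zebrafish, was at 20.6 FPKM on 60 kPa and 4.12 FPKM on 400 Pa at day 3.5. Before induction it was at 0.640 FPKM on 60 kPa and 2.42 FPKM on 400 Pa. Unlike the previous 3 genes, it was higher after induction on both gels. The changes between gels were 2.07 (SE 0.68), with q = 0.00783 in the authors' deposited table, and -1.06 (SE 0.99), with p = 0.00485 there before adjustment. The deposited log2 ratios without pseudocount, to which these SEs belong, were 2.32 at day 3.5 and -1.92 at day 0. The authors' deposited tables give an unadjusted p below 0.05 for 6 of the 9 tested members at day 3.5, against 5.93% of tested loci, and for 3 of 4 at day 0, against 1.86%.

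Promoter windows of the members were searched, since sequence played no part in choosing them. RefSeq's table on GRCh38.p14 holds 19 start sites for 8 of the 10 members, with none for LHX5 and SIX3. The 250 bases before each start were searched on both strands. Both windows of HESX1 and the first of 2 each of OTX2 and FEZF1 are shown, as these are the called members with an entry. The OTX2 window not shown has 0 matches of CCAAT and that of FEZF1 has 3. The sequences are given 5′ to 3′ on the strand of the gene, all on the minus strand, without bases in exons of protein-coding genes of GENCODE release 29. Capitals mark TAATTA, the core letters that many homeodomain proteins bind, and CCAAT or its reverse complement ATTGG, the letters of the CCAAT box.
OTX2 (chr14:56810480-56810729): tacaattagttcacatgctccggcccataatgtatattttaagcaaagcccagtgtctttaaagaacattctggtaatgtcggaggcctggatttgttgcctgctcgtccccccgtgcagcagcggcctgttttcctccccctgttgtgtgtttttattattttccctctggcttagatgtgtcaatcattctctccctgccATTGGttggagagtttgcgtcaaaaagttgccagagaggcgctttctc
HESX1, start nearest to APPL1 (chr3:57227616-57227725): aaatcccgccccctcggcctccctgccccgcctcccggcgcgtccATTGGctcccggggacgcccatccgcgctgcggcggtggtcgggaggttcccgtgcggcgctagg
HESX1, other start (chr3:57200029-57200228): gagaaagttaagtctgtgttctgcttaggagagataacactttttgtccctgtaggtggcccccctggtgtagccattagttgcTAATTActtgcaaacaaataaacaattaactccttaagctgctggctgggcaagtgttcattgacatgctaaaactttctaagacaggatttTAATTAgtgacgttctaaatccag
FEZF1 (chr7:122304751-122305000): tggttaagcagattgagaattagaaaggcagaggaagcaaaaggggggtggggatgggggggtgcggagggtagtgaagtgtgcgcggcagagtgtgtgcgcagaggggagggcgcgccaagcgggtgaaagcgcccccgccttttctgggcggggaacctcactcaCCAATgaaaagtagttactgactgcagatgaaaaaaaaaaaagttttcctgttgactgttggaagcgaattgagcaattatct

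TAATTA was found in 1 of the 19 windows of members, that of the second HESX1 start, with 2 matches, against 4.35% of 35114 windows of all genes. CCAAT was found in 9 of the 19 windows, from 6 of the 8 members, against 32.0% of all windows. None of the 8 had TAATCC, the core letters that OTX proteins bind (5.62% of all windows), or TCAAAG, part of the site of TCF and LEF factors (11.2%), in either orientation. TATAAA, the TATA box letters, was also absent from the members' windows and present in 10.7% of all windows. GGGCGG, the GC box, was present in 9 of the 19 windows, from 4 of the 8 members, and in 42.6% of all windows. PAX6 alone has 9 of the 19 windows. None of the matches in the members' windows overlapped a match of another motif. These matches describe the sequence and not binding, and a missing match says only that the letters are not in these windows.

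The HESX1 windows differ in base composition: the one at APPL1 has 79.2% G and C and 35 CpG, and the other 43.6% and 2 CpG, beside medians of 58% and 11 CpG over the 35114 windows. The first lies beside APPL1, an endosomal adaptor protein gene on the other strand, whose exons overlap the window. APPL1 was at 16.3 FPKM on 60 kPa and 16.2 FPKM on 400 Pa at day 3.5, and at 19.0 FPKM on 60 kPa and 17.0 FPKM on 400 Pa at day 0. Its change was 0.01 at day 3.5 and 0.15 at day 0, beside 2.92 and -1.03 for HESX1. The FEZF1 window overlaps an exon of FEZF1-AS1 on the other strand in that annotation. The tables give 1 value per gene and do not say which start was used. The listed HESX1 locus ends at hg19 base 57260549, and that of APPL1 begins 1216 bases beyond it. This gap is longer than a window, so by these coordinates the start at APPL1 lies outside the listed HESX1 locus.

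The eye-field and telencephalic genes were near 0 at day 0 and low after induction. SIX3, a homeodomain factor that represses WNT signalling in the mouse rostral forebrain, was at 8.52 FPKM on 60 kPa and 1.74 FPKM on 400 Pa at day 3.5, and at 0.0256 FPKM on 60 kPa and 0.438 FPKM on 400 Pa at day 0. Its change after induction was 1.80 (SE 0.86), past 2-fold but with q = 0.122 in the authors' deposited table. RAX, a homeodomain factor of the eye field, was at 3.81 FPKM on 60 kPa and 1.76 FPKM on 400 Pa at day 3.5, a change of 0.80 (SE 0.73) with q = 0.594 in the authors' deposited table. LHX2, a LIM-homeodomain factor of the eye and cortex, was at 2.75 FPKM on 60 kPa and 1.55 FPKM on 400 Pa, with a change of 0.56 (SE 1.10). Without pseudocount, the deposited log2 ratios at day 3.5 were 2.29 for SIX3, 1.11 for RAX and 0.83 for LHX2. At day 0 RAX was at 0.15 FPKM on 60 kPa and 0.0307 FPKM on 400 Pa, and LHX2 at 0.0631 FPKM on 60 kPa and listed at 0 on 400 Pa. The profiles of RAX and LHX2 were the closest of any pair of members, 0.24 apart.

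The more general neural markers among the members are PAX6, ZIC1 and SOX1, with SEs too wide or levels too low to size a difference between the gels. PAX6, a paired-domain factor of the early human neuroectoderm and the eye, was at 19.6 FPKM on 60 kPa and 17.2 FPKM on 400 Pa at day 3.5, and at 0.167 FPKM on 60 kPa and 0.597 FPKM on 400 Pa at day 0. It was thus far higher after induction on both gels, with a change between them of 0.17 and a wide SE of 2.17 that does not show equal levels. ZIC1, a zinc-finger factor of the neural plate border and dorsal neural tube, was at 1.72 FPKM on 60 kPa and 0.998 FPKM on 400 Pa at day 3.5, and at 0.299 FPKM on 60 kPa and 0.218 FPKM on 400 Pa at day 0. Its change at day 3.5 was 0.45 (SE 2.01), beside a log2 ratio of 0.79 without pseudocount in the authors' deposited table. SOX1, a marker of committed neuroectoderm, was at 0.0267 FPKM on 60 kPa and 0.0101 FPKM on 400 Pa after induction, and was not tested by the authors.

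Past 2-fold at day 3.5 were 5 members (HESX1, FEZF1, LHX5, SIX3 and OTX2), each higher on 60 kPa, where 3.76% of loci with 1 FPKM were past 2-fold higher on 60 kPa and 4.83% higher on 400 Pa. At day 0, HESX1 and LHX5 were past 2-fold higher on 400 Pa, against 2.62% of loci past it in that direction and 2.19% higher on 60 kPa. The median change of all loci was -0.02 at day 3.5 and -0.03 at day 0.

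HESX1, FEZF1, LHX5 and OTX2 were the 4 members with at least 1 FPKM on a gel on both days. Each was at least 1.5-fold higher on 60 kPa at day 3.5 and at least 1.5-fold higher on 400 Pa at day 0, a pattern that 1.26% of the 15603 loci at that level on both days had. The difference between the changes of the 2 days was 3.95 for HESX1, 3.22 for FEZF1, 3.13 for LHX5 and 1.84 for OTX2. It was not tested, because the members were chosen on these values and the tables were made separately.

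**Figure D2:**
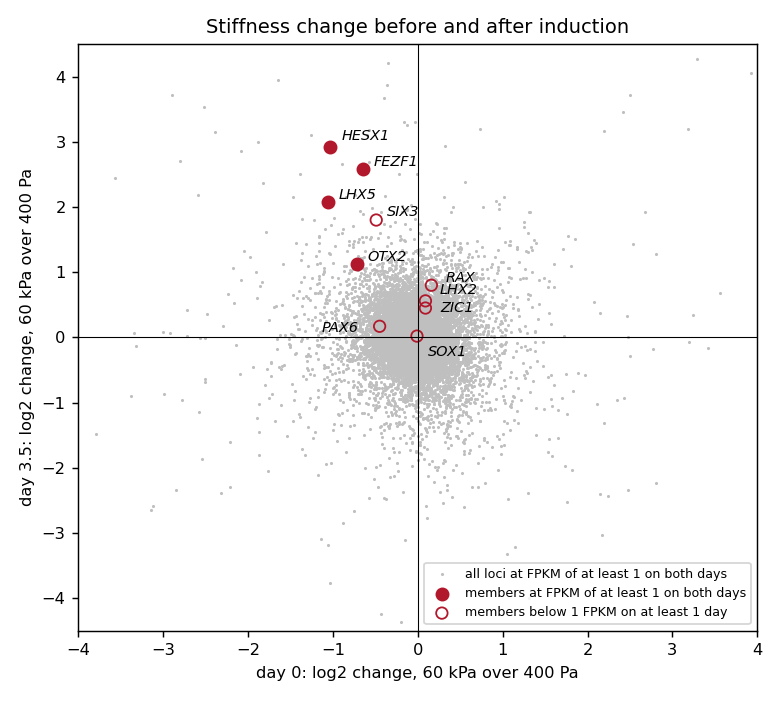
Change on 60 kPa over 400 Pa at day 3.5 (vertical axis, log2) against that at day 0 (horizontal axis, log2), with 1 point per locus and the members in red. HESX1, FEZF1, LHX5 and OTX2 lie in the upper left, higher on the stiff gel after induction and higher on the soft gel before it; 71 of the grey loci fall outside the axes.

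The 2 days come from tables made apart, so their levels are compared here by value alone. On 60 kPa the level of OTX2 at day 3.5 differed from that at day 0 by 0.87 log2 units, of HESX1 by 2.56, of FEZF1 by 2.07 and of LHX5 by 3.72, all higher at day 3.5. On 400 Pa the values were -0.97 for OTX2, -1.39 for HESX1, -1.15 for FEZF1 and 0.58 for LHX5. The first 3 of these genes were therefore lower in induced than in undifferentiated cells on the soft gel and higher on the stiff gel. That pair of directions, of any size, held for 16.0% of the loci at 1 FPKM or more on both days. Past 2-fold were 8 members higher at day 3.5 on 60 kPa, and 0 past it lower, against 6.97% of loci higher and 5.05% lower. On 400 Pa, 3 members were past 2-fold higher (9.30% of loci) and 2 past it lower (7.59%). PAX6 had the largest value on either gel, 4.14 on 60 kPa and 3.51 on 400 Pa. SIX3 was at 3.21 and RAX at 2.06 on 60 kPa, and at 0.93 and 1.42 on 400 Pa. The median locus differed between the days by 0.01 on 60 kPa and -0.03 on 400 Pa.

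The position of the members was not used to choose them, and several share their locus with another listed transcript. The listed coordinates are those of a locus, which can span several genes: PAX6, ELP4 and RCN1 have the same start and end. A shared locus thus does not show that the genes overlap, and distances are between loci and not between genes. The loci of OTX2 (hg19 chr14:57265547-57277214), HESX1 (chr3:57231756-57260549), RAX (chr18:56934133-56941318), LHX2 (chr9:126763949-126795580), ZIC1 (chr3:147103833-147228080) and SOX1 (chr13:112721913-112726020) are spread over the genome. FEZF1 (hg19 chr7:121940560-121955028) shares it with FEZF1-AS1, its antisense long noncoding RNA. FEZF1-AS1 was at 119 FPKM on 60 kPa and 17.8 FPKM on 400 Pa at day 3.5, and at 5.37 FPKM on 60 kPa and 10.9 FPKM on 400 Pa at day 0. It thus had the gel order of FEZF1 on both days, with a change of 2.67 at day 3.5 and q = 0.122 in the authors' deposited table. LHX5 (hg19 chr12:113899815-113918664) shares its locus with RP11-82C23.2, at 108 FPKM on 60 kPa and 18.2 FPKM on 400 Pa at day 3.5, and at 1.15 FPKM on 60 kPa and 4.61 FPKM on 400 Pa at day 0. Its change of 2.51 at day 3.5 had q = 0.041 in the authors' deposited table. Since the strand setting of the counting is not given in the sources used here, reads of a gene and of an overlapping transcript on the other strand cannot be told apart.

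SIX3 (hg19 chr2:45147332-45174144) shares its locus with SIX3-AS1 and RP11-89K21.1. SIX3-AS1 was at 10.5 FPKM on 60 kPa and 1.98 FPKM on 400 Pa at day 3.5, and at or below 0.0414 FPKM at day 0. RP11-89K21.1 was at 26.8 FPKM on 60 kPa and 9.23 FPKM on 400 Pa at day 3.5, and at 0.405 FPKM on 60 kPa and 2.79 FPKM on 400 Pa at day 0. Neither was called in the authors' deposited table. The listed locus of PAX6 (hg19 chr11:31531297-32127301) is also that of ELP4, a subunit of the Elongator complex, and RCN1, a calcium-binding protein of the endoplasmic reticulum. ELP4 was at 20.2 FPKM on 60 kPa and 11.4 FPKM on 400 Pa at day 3.5, and at 12.2 FPKM on 60 kPa and 11.3 FPKM on 400 Pa at day 0, a far smaller difference between the days than that of PAX6. RCN1 ranged from 84.1 to 116 FPKM over the 4 groups.

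Outside the shared loci, 30 rows with a gene name and at least 1 FPKM in a group had a listed locus within 200 kb of that of a member. Of these, 3 were past 2-fold or, after rounding, at it, higher on 60 kPa at day 3.5. Past 2-fold higher on 400 Pa were 2, and the median change of the 30 rows was 0.14. Of all loci with 1 FPKM on a gel at day 3.5, 3.76% were past 2-fold higher on 60 kPa and 4.83% higher on 400 Pa. The 3 rows higher on 60 kPa were AC012354.6 (change 1.12) and CAMKMT near SIX3, and AASS (change 1.11), an enzyme of lysine breakdown, near FEZF1. CAMKMT, a calmodulin methyltransferase, was at 13.6 FPKM on 60 kPa and 6.33 FPKM on 400 Pa at day 3.5. AASS was at 83.3 FPKM on 60 kPa and 38.1 FPKM on 400 Pa at day 3.5, and at 170 FPKM on 60 kPa and 165 FPKM on 400 Pa at day 0. CCBE1, a secreted factor of lymphatic growth near RAX, had the opposite direction, at 1.98 FPKM on 60 kPa and 12.1 FPKM on 400 Pa at day 3.5, with q = 0.00783 in the authors' deposited table. The other was RP11-395G17.1 near FEZF1, listed at 0 on 60 kPa and at 4.21 FPKM on 400 Pa.

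**Figure D3:**
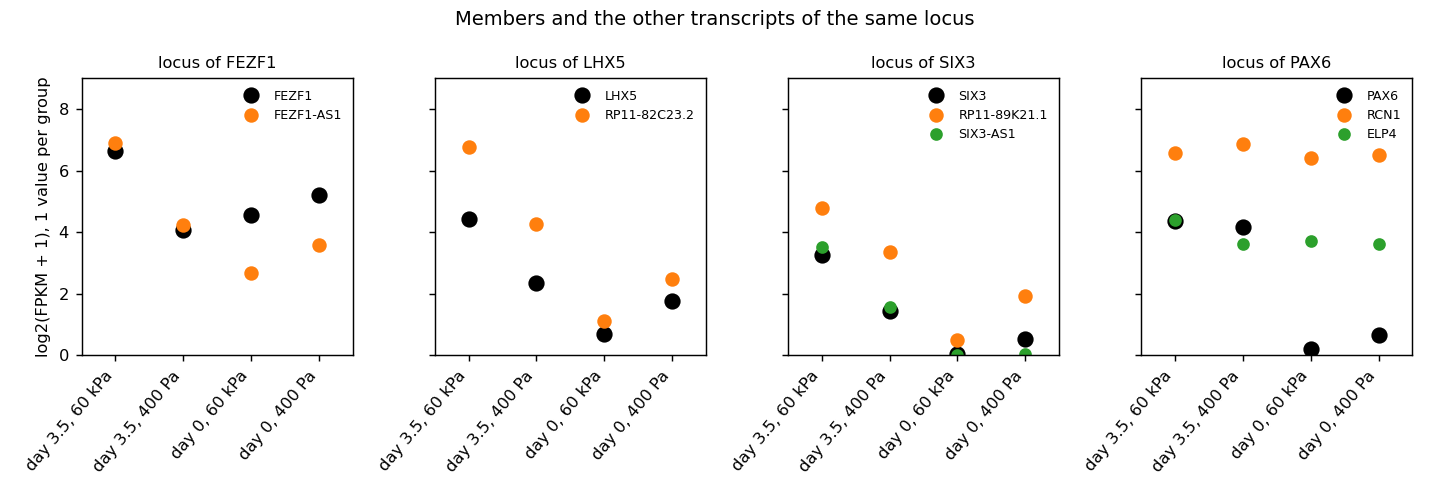
Levels as log2(FPKM + 1) of FEZF1, LHX5, SIX3 and PAX6 (black) and of the other transcripts listed in the same locus (colours), with 1 point for the authors' value in each group. FEZF1-AS1, RP11-82C23.2, SIX3-AS1 and RP11-89K21.1 were highest at day 3.5 on 60 kPa, as were their partners, whereas RCN1 stayed between 84.1 and 116 FPKM.

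Genes with profiles most like the members were found by the same distance over the 4 groups, among named genes with at least 5 FPKM in a group, leaving out the 10 members themselves. Nearest of these to FEZF1 was SOX21, a SOXB2 factor of neural progenitors, at a distance of 0.48. SOX21 was at 30.1 FPKM on 60 kPa and 7.35 FPKM on 400 Pa at day 3.5, and at 8.57 FPKM on 60 kPa and 14.0 FPKM on 400 Pa at day 0. FZD5, a WNT receptor, came next at 0.51, and the small nuclear RNA RNU5B-1 at 0.55. FZD5 was at 76.9 FPKM on 60 kPa and 18.3 FPKM on 400 Pa at day 3.5, and at 25.4 FPKM on 60 kPa and 29.1 FPKM on 400 Pa at day 0. Outside the members, nearest to HESX1 were RNU5B-1 (0.43), RNU2-37P (0.78) and SOX21 (0.79). RNU5B-1 was at 298 FPKM on 60 kPa and 33.9 FPKM on 400 Pa at day 3.5, and at 44.4 FPKM on 60 kPa and 67.9 FPKM on 400 Pa at day 0. Neither RNU5B-1 nor RNU2-37P was called on either day. RNU2-37P was listed at 0 on 400 Pa at day 3.5 and on 60 kPa at day 0. Likewise outside the members, LHX5 was most like MYO3B (0.43), FEZF1-AS1 (0.53) and LRRN3 (0.56), and OTX2 like CLCN2 (0.14), CTA-14H9.5 (0.15) and ZC3H6 (0.18). Among the members, FEZF1 lay nearer to HESX1 (0.38) than any of these, and SIX3 lay 0.46 from LHX5. With only 4 values a gene, such likeness describes these groups only.

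Other genes of the neural lineages came from lists chosen with earlier results of these data known, so their counts are a description. For the calls in all lists below, 0.252% of tested loci at 1 FPKM were called higher on 60 kPa at day 3.5. Called higher on 400 Pa were 1.08%. Of 21 other anterior neural factors, 6 reached 1 FPKM at day 3.5. IRX1 (5.12 FPKM on 60 kPa and 2.46 FPKM on 400 Pa) and OTX1 (4.15 FPKM on 60 kPa and 2.77 FPKM on 400 Pa) had no call. The median of the 6 was 0.56. Of 4 midbrain, hindbrain and spinal cord factors at that level, the authors' deposited table called 1, HOXB1, a factor of the hindbrain and early mesoderm, higher on 400 Pa. HOXB1 was at 0.252 FPKM on 60 kPa and 4.83 FPKM on 400 Pa, and all 4 lay below 0.

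Among 14 early pan-neural factors at 1 FPKM, the authors' deposited table called SOX21, POU3F1 and ZIC5 higher on 60 kPa and MEIS2 higher on 400 Pa at day 3.5, and the median was 0.45. POU3F1, a POU factor of the epiblast and neural plate, was at 2.96 FPKM on 60 kPa and 0.424 FPKM on 400 Pa. ZIC5, a relative of ZIC1, was at 19.2 FPKM on 60 kPa and 7.40 FPKM on 400 Pa. MEIS2, a TALE homeodomain factor of brain and mesoderm, was at 10.2 FPKM on 60 kPa and 42.3 FPKM on 400 Pa. SOX2, shared by pluripotent and neural cells, was at 164 FPKM on 60 kPa and 54.0 FPKM on 400 Pa, and had no call.

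Of 9 markers of neural progenitors and neurons at 1 FPKM, the authors' deposited table called 0 in either direction at day 3.5, and the median was 0.25. CDH2, an adhesion protein of neural and mesodermal cells, was at 47.0 FPKM on 60 kPa and 32.8 FPKM on 400 Pa. NES, an intermediate filament of progenitors, was at 23.8 FPKM on 60 kPa and 26.8 FPKM on 400 Pa. FABP7, a fatty acid binding protein of radial glia, was at 16.5 FPKM on 60 kPa and 21.6 FPKM on 400 Pa after induction, and at 1.71 FPKM on 60 kPa and 1.68 FPKM on 400 Pa at day 0. HES5, a NOTCH target of progenitors, was below 0.1 FPKM on both gels at day 3.5, as was SOX1. Of 7 neural progenitor markers, among them the members PAX6 and SOX1, 5 reached 1 FPKM on 60 kPa and 4 on 400 Pa at day 3.5. They summed to 70 FPKM on 60 kPa and 70.9 FPKM on 400 Pa. At day 0 the 6 that were listed summed to 40.4 FPKM on 60 kPa and 36.1 FPKM on 400 Pa. Some of these markers were thus present and others absent, so the 10 genes are treated here as a set of factors and not as evidence of neural cells.

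Of 13 neural crest and plate border factors at 1 FPKM at day 3.5, the authors' deposited table called SNAI2, MSX1 and MSX2 higher on 400 Pa and 0 higher on 60 kPa, and the median was -0.57. MSX1, a homeodomain target of BMP signalling, was at 3.26 FPKM on 60 kPa and 18.6 FPKM on 400 Pa. Among 12 secreted antagonists of WNT and BMP signalling and related anteriorising factors, the authors' deposited table called SFRP1, SFRP2, FRZB and SHISA2 higher on 60 kPa and 0 higher on 400 Pa, and the median was 0.49. SHISA2, whose frog relative retains WNT and FGF receptors inside the cell, was at 200 FPKM on 60 kPa and 73.8 FPKM on 400 Pa at day 3.5. Before induction SHISA2 was at 10.5 FPKM on 60 kPa and 18.6 FPKM on 400 Pa. FST, a secreted antagonist of Activin, was at 58.2 FPKM on 60 kPa and 57.7 FPKM on 400 Pa at day 3.5. Of the 12, 9 were listed higher on 60 kPa and 3 higher on 400 Pa. The 3 were NOG (1.34 FPKM on 60 kPa and 3.78 FPKM on 400 Pa), DKK1 (12.3 and 21.6) and CHRD (1.47 and 1.58). NOG was past 2-fold, with a change of -1.03 and no call.

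The lists of other lineages ran as follows at day 3.5, beside 0.252% of all tested loci called higher on 60 kPa and 1.08% higher on 400 Pa. Of 18 primitive streak and mesoderm genes at 1 FPKM, the authors' deposited table called 6 higher on 400 Pa and 0 higher on 60 kPa, and the median was -0.86. HAND1, a bHLH factor of the lateral mesoderm, was at 6.07 FPKM on 60 kPa and 53.8 FPKM on 400 Pa. Of 16 pluripotency genes, the authors' deposited table called 1, PRDM14, a regulator of the pluripotent state, higher on 60 kPa, and the median was 0.39. PRDM14 was at 17.1 FPKM on 60 kPa and 4.45 FPKM on 400 Pa. Of 5 anterior endoderm and prechordal genes and 15 co-repressors and cofactors, the authors' deposited table called 0, and the medians were 0.13 and -0.10.

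**Figure D4:**
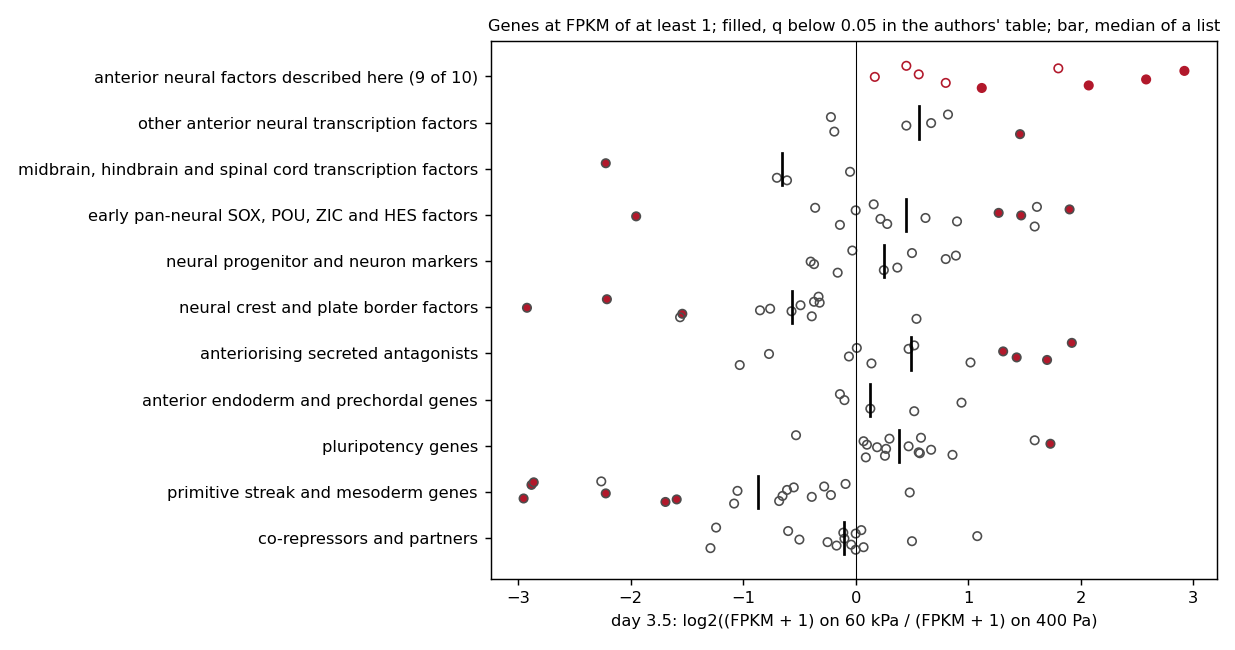
Change at day 3.5 on 60 kPa over 400 Pa (horizontal axis, log2) for genes with at least 1 FPKM on a gel, with 1 point per gene and 1 row per list; filled points had q below 0.05 in the authors' deposited table, and bars are medians of the lists. The 9 members at that level lie between 0.17 and 2.92, while the list medians run from -0.86 for primitive streak and mesoderm genes to 0.56 for other anterior neural factors.

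Levels of markers of other lineages also differed between the groups, and their part in the differences was not tested. OTX2 and HESX1 are also used by pluripotent or anterior endoderm cells. Of 7 pluripotency markers, all 7 were at 1 FPKM or more in each group, with summed levels of 848 FPKM on 60 kPa and 526 FPKM on 400 Pa at day 3.5, and 2035 FPKM on 60 kPa and 1904 FPKM on 400 Pa at day 0. SOX2 (164 FPKM on 60 kPa and 54 FPKM on 400 Pa) and LIN28A (239 and 131) made up most of the day 3.5 difference. Neither was called. POU5F1 (122 FPKM on 60 kPa and 114 FPKM on 400 Pa) and NANOG (3.16 and 2.46) differed little at day 3.5. Of 5 anterior or definitive endoderm markers, FOXA2, which defines that lineage, was below 0.1 FPKM in each group, and SOX17 and GSC were at most 0.38 FPKM at day 3.5. CER1 made up most of their sum of 33.5 FPKM on 60 kPa and 22 FPKM on 400 Pa. The 6 listed markers of primitive streak and mesoderm summed to 31.0 FPKM on 60 kPa and 93.4 FPKM on 400 Pa at day 3.5, the reverse of the members, and to 1.38 FPKM on 60 kPa and 1.32 FPKM on 400 Pa at day 0. HAND1, at 6.07 FPKM on 60 kPa and 53.8 FPKM on 400 Pa, made up most of this day 3.5 difference. T (5.15 and 12 FPKM), MESP1 (8.03 and 13.5), MIXL1 (6.39 and 7.6), EOMES (3.44 and 4.4) and TBX6 (1.94 and 2.13) differed less and had no call. The 4 markers of amnion and surface ectoderm summed to 27.5 FPKM on 60 kPa and 134 FPKM on 400 Pa at day 3.5. At day 0 they summed to 7.18 FPKM on 60 kPa and 14 FPKM on 400 Pa. KRT7 and VTCN1 made up most of the day 3.5 difference. TFAP2A (8.83 FPKM on 60 kPa and 13.6 FPKM on 400 Pa) and GATA3 (4.33 and 8.02) differed less and had no call at day 3.5. Neural crest markers summed to at most 7.35 FPKM in any group.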

How the data were processed

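RNA of 8 libraries in 4 groups was sequenced. Per the submitters' processing notes, the authors used Cufflinks and hg19, and per the file headers each day has its own deposited table. A locus has 1 FPKM per gel, as the authors deposited it. The deposited log2 column is the ratio of the gels, 60 kPa on top. The authors' test statistic is used as a score, beside the deposited p-value and q-value. Aligner, annotation, tool versions and depth: not given in the sources used here. Benjamini-Hochberg adjustment of the deposited p-values gave the q-values again to within 5.2e-07, and the smallest deposited p-value is 5e-05.

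From these values, 1 row per symbol was kept (highest mean), and changes were computed with a pseudocount of 1 FPKM. No test over libraries was possible. Called means a deposited q below 0.05 with an FPKM of at least 1 on a gel (18225 loci at day 3.5 and 17315 at day 0). The authors' p-values measure no more than the spread between these libraries, possibly technical. Levels of the 2 days got no test, since each table was made on its own. Starts of loci were raised by 1 to be 1-based: for 4929 of 20174 named rows, the gene length in the reference annotation equals end minus start as deposited, and for 139 that plus 1. Members, lists and tests were chosen with earlier results of these data known. Named genes are the members, the 3 genes nearest to each of OTX2, HESX1, FEZF1 and LHX5, named neighbours within 200 kb, and called or highly expressed genes of each list, of which a part is printed. Some genes of the lists are not reported here. Fold counts, distances and the motif search were tested on simulated data. Python 3.11.15, pandas 2.3.3, numpy 2.4.6 and matplotlib 3.10.9 were used.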

Additional observations from a re-analysis of the deposited data

Results flagged for a closer look

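The members with at least 1 FPKM on both days had opposite directions before and after induction. The change on 60 kPa over 400 Pa at day 3.5 minus that at day 0 was 3.95 log2 units for HESX1, 3.22 for FEZF1, 3.13 for LHX5 and 1.84 for OTX2. Each group has 1 value only and the difference was not tested. The minimum of 1.5-fold on each day was set after the values were known.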

How the results depend on the processing

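Each group has 1 value per gene, so no library could be left out. No paired analysis was possible because the columns carry no replicate. The 4 members called higher on 60 kPa at day 3.5 numbered between 3 and 6 under other thresholds, and a new adjustment over loci at 1 FPKM gave the same count. At day 0 the count of members past the fold and higher on 400 Pa was 2. It became 4 at 1.5-fold, 0 at 3-fold, 1 with a minimum of 5 FPKM and 1 when centred on the median locus. With an unadjusted p below 0.05, 3 members were higher on 400 Pa at day 0, in place of 0. Pseudocounts of 0.1 and 0.5 FPKM and summing rows reversed no member. Centring reversed SOX1 at day 0, at 0.01, where it is near 0 FPKM. A pseudocount of 0.1 FPKM moved 2 of 20 changes between gels and 6 of 20 between days, all of members near 0 at day 0, such as SIX3 on 60 kPa (6.10 between days).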
